A study of Drosophila melanogaster with 64 samples.

Results

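The ubiquitous proteasome of Drosophila melanogaster was followed through the RNA of 32 of its subunit genes in dissected testes. The genes were taken by symbol from a count table of 17606 genes: 7 alpha-ring and 7 beta-ring genes of the 20S core, and 6 Rpt and 12 Rpn genes of the 19S cap, leaving out the copies of these genes that are used in the testis. All 32 were found in the table, and all 32 passed the filter on low counts in every comparison. The choice went by gene name, and was made with earlier results of these data known.

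The libraries came from 8 lines at 2 stages, late larvae of the last instar (L3) and adults 1 to 5 days old, with 4 pools of testes in each of the 16 groups (20 testes per adult pool, 15 per L3 pool). The labels do not say whether the pools of a group came from separate cultures, so p-values measure the spread between these pools. The control was the irradiated parental stock, whose X carried Dp(1;1)scV1 with the alleles y2, y+, sc+, scV1, su(wa) and wa, and also cv, v and f. The 7 other lines added a translocation between the X chromosome and chromosome 2, T(1;2), to that same X, so the controls carried the duplication and the markers too. The translocations BM4 and BM21 are labelled fertile and, like the parental stock, are listed with C(1)M4, y. BM1, BM5, BM6, BM24 and BM46 are labelled sterile and are listed with FM7i, P{ActGFP}JMR3. Sterility and the chromosome listed beside the X split the lines in the same way and cannot be told apart. Each translocation is 1 line, and L3 testes alone were treated with papain and collagenase to remove fat body, so stage and that treatment cannot be told apart either. Adult libraries held 20387 to 24650332 counts each, with 3 of them under 1000000, and L3 libraries 8961413 to 21275143. The 3 shallow ones were replicate 3 of BM6 (20387 counts) and replicates 2 and 3 of BM24 (233047 and 43347). Adult BM24 thus had 2 libraries above that depth. The testis was marked at both stages: dj, a sperm tail gene, was at 1422 ± 197 CPM (counts scaled to the library total) in adult parental testes and 559 ± 15.6 in L3 (SD, n = 4). Of the other tissues, accessory gland genes stood out in 7 adult libraries of BM1, BM4, BM6 and BM21, where the list had a mean log2 CPM of 4.62 to 7.99 against at most 2.38 in the other adult libraries. Fat body genes were high in adult BM46 replicate 1 (mean log2 CPM 7.08) and BM24 replicates 2, 3 and 4 (9.81, 10.15 and 5.09). Their median over the adult libraries of at least 1000000 counts was 1.53.

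The proteasome is the protease that degrades proteins tagged with ubiquitin. Its 20S core is a stack of alpha and beta rings, with the cutting sites on the beta subunits Prosbeta1, Prosbeta2 and Prosbeta5. Its 19S cap recognises tagged proteins, removes the ubiquitin and threads the protein into the core with a ring of Rpt ATPases. In Drosophila, many of these subunits have a second gene that is used in the male germline, where the resulting particles are needed for sperm development.

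Levels between subunit genes were compared per kilobase of exon (CPM per kb), after TMM scaling, the trimmed-mean scaling of library totals. Prosalpha7, an alpha-ring subunit, was the highest, with 289 ± 23.4 CPM per kb in adult and 351 ± 33.7 in L3 parental testes (SD, n = 4). Rpt3, an ATPase, was the lowest apart from Prosalpha1, with 13.0 ± 1.81 and 20.8 ± 1.30 CPM per kb, so the range spanned 22.3-fold in adults and 16.9-fold in L3. The subunits of one particle were thus not at one RNA level. Rpn12, of the lid, came next to the bottom at both stages (18.7 ± 3.49 in adults, 39.5 ± 5.23 in L3), and Prosalpha4 and Rpt4 were the next above it. By role, the median level in adults was 196.5 CPM per kb in the beta ring, 148 in the alpha ring, 146 in the base Rpn genes, 121 in the lid and 79.9 in the Rpt ring, again without Prosalpha1. Neighbours in this order mostly overlapped: 25 of the 30 neighbouring pairs did so in adults and 21 in L3.

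Prosalpha1 (FBgn0263121, chromosome 2R, 7827303 to 7828678, minus strand) was set apart because its counts were erratic. The 4 L3 parental libraries had 0, 731, 154 and 11 counts and the 4 adult ones 0, 6, 13 and 0. Over all 64 libraries, 15 had 0 counts, 40 had 1 to 50 and 9 had more, up to 814. No other subunit behaved in this way. A near-identical neighbouring copy, CG30382, had at most 6 counts in any library, and the treatment of reads that match both genes was not given in the sources used here, so the values of Prosalpha1 are uncertain. It is counted among the 32 below, and counts without it are given where they differ.

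The other 31 genes were steady within groups. In the 61 libraries with at least 1000000 counts, the SD of log2 CPM within a group had a median of 0.075 over genes, from 0.049 for the lid gene Rpn7 to 0.20 for Prosalpha5. Deviations from the group means were shared unevenly. The median Pearson correlation over the 465 pairs of genes was 0.23 across the 61 libraries. Single pairs ran from −0.77 to 0.88, and 71.2% were above 0. The median was 0.37 between genes of the core, 0.23 within the cap and 0.16 between core and cap. Such values were not worked out for other genes. The libraries of a pair of genes share their depth and scaling, and these correlations are a description.

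The comparison of adult with L3 parental testes asked how the subunit genes differ between stages without a translocation. Of the 32 genes, 26 were lower in adults and 1 higher, at an adjusted p under 0.05 (edgeR quasi-likelihood F test over all genes, 4 libraries per stage). Among all 11286 genes tested, 38.5% were lower and 36.1% higher (74.6% called in all), so calls were common at large, and the subunits differed from the whole in their direction. The median log2 change of the 32 was −0.33, against −0.05 for all genes tested. Without Prosalpha1, 25 of 31 were lower and 1 higher. These samples are whole testes, and fewer cells of a type and less RNA per cell cannot be told apart. The letter that opens each sample name was read here as its plate row. It was A for the L3 and C for the adult parental libraries. Stage and row therefore cannot be told apart in this comparison.

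**Figure D1:**
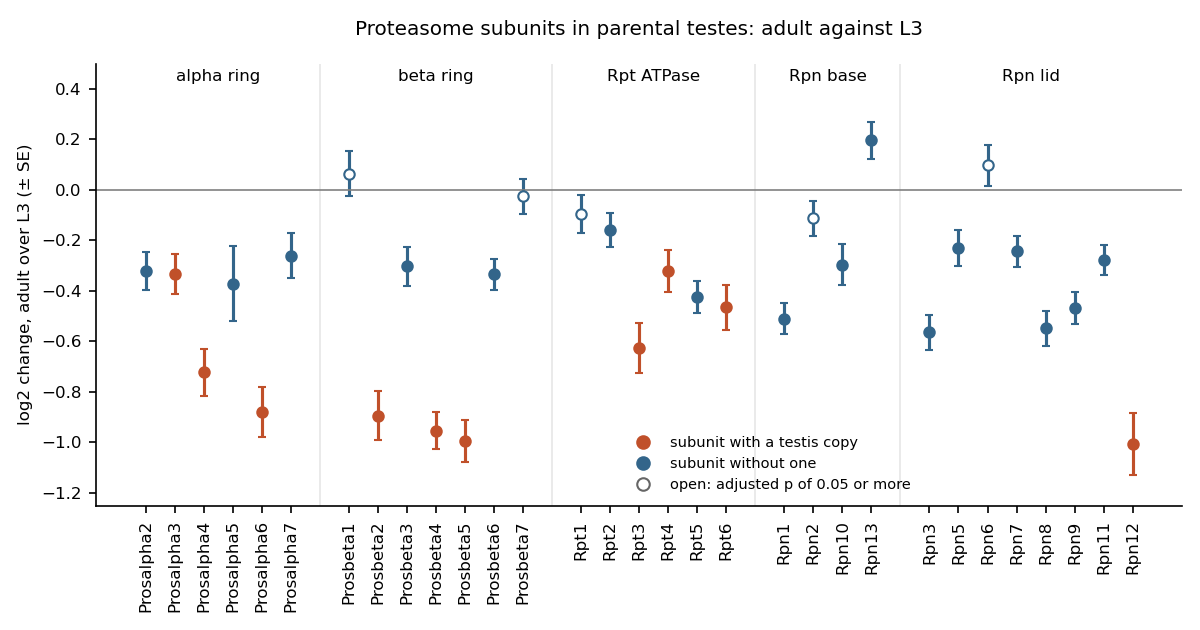
Log2 change of each subunit gene from L3 to adult parental testes (vertical axis, with SE bars; 4 libraries per stage), grouped by role on the horizontal axis; Prosalpha1 lies beyond the scale and is left out. Subunits with a copy among the 14 listed testis copies (orange) run from −0.32 to −1.01 and take the 7 lowest places; Rpn13, the gene called higher here, turns to −0.20 when libraries are scaled by size alone.

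Genes of every role were among those called lower, least clearly in the base. There Rpn13 was called higher and Rpn2 was not called. The share of all genes called lower was 38.5%. All 7 alpha-ring genes were lower (6 of 6 without Prosalpha1), as were 5 of 7 beta-ring genes, 5 of 6 Rpt genes, 2 of 4 base Rpn genes and 7 of 8 lid genes. The calls nearest the threshold were those of the ATPase Rpt2 (−0.16 ± 0.07, adjusted p = 0.0481, edgeR) and of Prosalpha5 (−0.37 ± 0.15, adjusted p = 0.0377), and both were lost by DESeq2 and without any of L3 libraries 2, 3 or 4. Rpn12, a lid subunit (FBgn0028693, 3L, 16583028 to 16584022, plus strand), had 31.98, 41.7, 39.7 and 44.0 CPM in the L3 libraries and 19.8, 21.2, 19.8 and 13.5 in the adult ones. The stages did not overlap, and the log2 change was −1.01 ± 0.12 (SE, adjusted p = 9.23e-06, edgeR). The chymotrypsin-like catalytic subunit Prosbeta5 (2R, 10819978 to 10821178, plus strand) went from 165, 165, 156 and 169 CPM to 73.1, 83.5, 93.2 and 74.1, so that every adult library lay below every L3 library (−0.99 ± 0.08, adjusted p = 3.53e-07, edgeR).

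The catalytic subunits did not move together. The trypsin-like Prosbeta2 (3L, 14999951 to 15001319, plus strand) fell like Prosbeta5, from 160, 162, 163 and 149 CPM to 72.0, 77.6, 90.4 and 103 (−0.89 ± 0.10, adjusted p = 3.68e-06, edgeR). The caspase-like Prosbeta1 (2R, 16013805 to 16014787, minus strand) had 215, 213, 192 and 209 CPM in L3 and 248, 218, 185 and 202 in adults, and the stages overlapped (0.06 ± 0.09, adjusted p = 0.5262). Its value was −0.024 without adult library 1 and −0.34 when libraries were scaled by size alone. Prosbeta1, Prosbeta2 and Prosbeta5 each overlap another gene on the opposite strand (CG8389, Reck and Lsm10), and the counting has a strand setting not given in the sources used here.

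Rpn13, the ubiquitin receptor of the base (2R, 13958545 to 13960404, minus strand), was the gene called higher, with 288, 264, 259.6 and 259 CPM in L3 and 285, 289, 306 and 335 in adults. The ranges overlapped at one library of each stage, and the change of 0.20 ± 0.07 had an adjusted p of 0.0267 (edgeR). That call was lost without adult library 4 (adjusted p = 0.0688) and without L3 library 2 (0.0688), 3 (0.0765) or 4 (0.0724), and the value was −0.20 under scaling by library size. Rpn6, the lid scaffold subunit, had 432, 448, 480 and 471 CPM in L3 and 546, 501.9, 435 and 451 in adults, which overlap (0.10 ± 0.08, adjusted p = 0.287, or −0.31 under scaling by library size). The base scaffold Rpn2 (−0.11), the ATPase Rpt1 (−0.10) and Prosbeta7 (−0.03) were the other uncalled genes. With libraries scaled by size alone, the median of all genes shifted by −0.41 and all 32 subunit genes were called lower, while the median of the subunits minus that of all genes stayed close (−0.27, against −0.28). Markers of the tissue moved with stage as well: the summed level of 8 muscle genes was 174 to 247 CPM in adult and 43.4 to 44.1 in L3 parental libraries, that of 6 fat body genes 46.8 to 121 and 169 to 296, and that of 4 cyst and hub genes 111 to 138 and 147 to 165, none of them at 0. Most of the L3 muscle sum came from Tm1 (40.0 ± 0.66 CPM), and the other muscle genes had L3 means of only 0.13 to 1.35 CPM. Within the fat body list, apolpp alone was not lower in adults (53.3 ± 16.5 against 46.9 ± 3.14 CPM). Within the cyst and hub list, tj, zfh1 and eya were lower in adults and upd1 was higher (34.5 ± 2.25 against 19.9 ± 2.01 CPM). Of the 6 listed testis germline genes, the early genes vas (18.99 ± 0.862 against 34.2 ± 3.32 CPM) and bam (9.49 ± 1.01 against 16.0 ± 1.13) were lower in adults. So were aly (52.35 ± 5.35 against 95.8 ± 3.23) and twe (221.7 ± 4.89 against 251.5 ± 12.3). The remaining ones, dj (1422 ± 197 against 559 ± 15.6) and Mst98Ca (2745 ± 201 against 1058 ± 136), were higher. The part of these markers in the result was not tested.

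Of the 32 subunits, 10 have at least 1 copy in a list of 14 testis copies, which leaves out Rpn13R, the copy named after Rpn13. All 10 were lower in adults, with a median of −0.80 and a range from −1.01 (Rpn12) to −0.32 (Rpt4). The 21 others, leaving out Prosalpha1, had a median of −0.28 and a range from −0.56 (Rpn3) to 0.20 (Rpn13), with 15 lower and 1 higher. With Rpn13 counted among the subunits with a copy, 10 of 11 were lower and 1 higher (median −0.72), and 15 of the other 20 were lower (median −0.29). Leaving out Prosalpha1, the 7 largest falls were Rpn12, Prosbeta5, Prosbeta4 (−0.95 ± 0.07), Prosbeta2, Prosalpha6 (−0.88 ± 0.10), Prosalpha4 (−0.72 ± 0.09) and Rpt3 (−0.63 ± 0.10), all with a testis copy. Among the genes without one, the largest falls were in the lid genes Rpn3 (−0.56 ± 0.07), which is a scaffold subunit, and Rpn8 (−0.55 ± 0.07), the partner of the deubiquitinase Rpn11, and in the base scaffold Rpn1 (−0.51 ± 0.06).

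The testis copies themselves went both ways: 6 of the 14 listed were higher in adult parental testes and 8 lower, or 7 and 8 of 15 with Rpn13R, which was higher (0.31 ± 0.11, adjusted p = 0.0262, edgeR). Higher were Prosbeta5R1 (0.76 ± 0.14), Prosbeta4R2 (0.60 ± 0.11), Prosalpha4T2 (0.43 ± 0.08), Prosalpha6T (0.37 ± 0.07), Prosbeta2R1 (0.28 ± 0.08) and Rpn12R (0.26 ± 0.06), with an edgeR adjusted p of at most 0.00454. Lower were Prosalpha3T, Prosalpha4T1, Prosbeta2R2, Prosbeta4R1, Prosbeta5R2, Rpt3R, Rpt4R and Rpt6R, by 0.25 to 0.83 on the log2 scale. Prosalpha4, Prosbeta2, Prosbeta4 and Prosbeta5 have a pair of copies each, of which one was higher and the other lower. No copy of an Rpt gene was higher in adults.

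Set beside its copy, a ubiquitous subunit was often the lesser of the pair. Per kilobase, Rpn12R stood at 405% ± 62.9 of Rpn12 in L3 and 1026% ± 218 in adult parental testes (SD, n = 4). Prosbeta5R1 went from 67.7% ± 3.32 to 232% ± 74.1 of Prosbeta5, and Prosalpha6T from 106% ± 14.5 to 251% ± 49.9 of Prosalpha6. For these pairs the ranges of the stages did not overlap. Rpt3R was already at 688% ± 26.6 of Rpt3 in L3 and at 756% ± 91.9 in adults, and Rpt4R at 276% ± 25.3 and 264% ± 19.9 of Rpt4, with overlapping ranges. Prosalpha3T stayed the minor partner, at 25.8% ± 1.15 and 27.6% ± 2.68 of Prosalpha3. These ratios are a description, and reads that match both members of a pair could shift them.

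**Figure D2:**
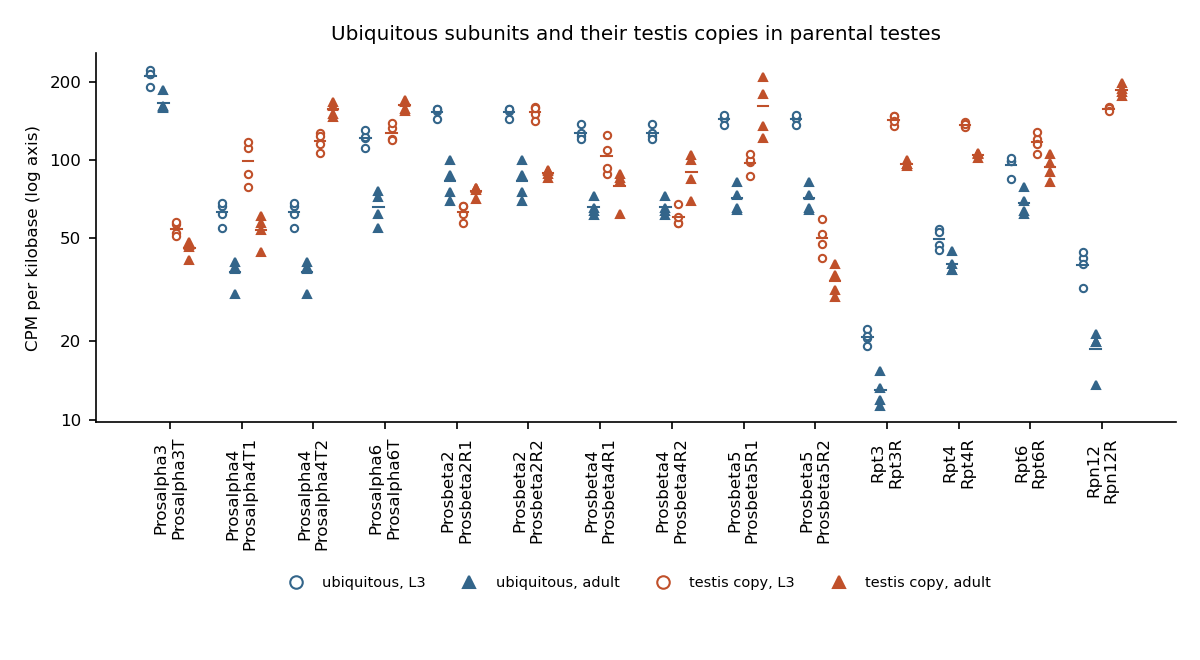
CPM per kilobase (log axis) in each of the 4 L3 and 4 adult parental libraries for 14 pairs of a ubiquitous subunit (blue) and its testis copy (orange), with bars at the means; a subunit with 2 copies appears once for each. Every blue group falls from L3 to adults, while the orange groups move both ways; Rpn12R rises from a mean of 158 to 186 as Rpn12 falls from 39.5 to 18.7.

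The position of the genes was not used in choosing them. Only 4 of the 32 lie on the X, Prosalpha4, Rpt3, Rpt4 and Rpt6, and all 4 of these have a testis copy, in each case on an autosome. The list held copies for 2 of 4 subunit genes on 2L, 2 of 10 on 2R (where Rpn13 lies too), 2 of 5 on 3L and 0 of 9 on 3R. The 4 X-linked genes were all lower in adult parental testes, with a median of −0.55.

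The same direction was present in the other lines. With the line as replicate (counts summed over the 4 libraries of each line and stage, 8 lines as blocks), 25 of the 32 genes were lower in adults and 1 higher (edgeR), against 40.2% lower and 39.9% higher among 13118 genes tested (80.1% called in all). The median over the 32 was −0.37, against 0.01 for all genes. All 10 subunits with a listed copy were lower (median −0.73); Rpn13 was not called. The largest falls were in Prosbeta2 (−1.12 ± 0.04, adjusted p = 4.92e-10), Prosbeta4 (−1.10 ± 0.04, adjusted p = 9.26e-10) and Prosalpha6 (−1.09 ± 0.05, adjusted p = 2.93e-09), each below −0.88 in all 8 lines. Line by line, as the mean log2 CPM of adult minus L3 libraries without the 3 shallow ones, the median of the 31 genes other than Prosalpha1 lay between −0.34 (BM1) and −0.45 (BM24), and 25 (BM6) to 30 (BM4) of them had a value below 0. The parental stock is 1 of these lines, so its own comparison is part of this one. Each line also had its L3 and adult libraries in different plate rows, so stage and row cannot be told apart within any line.

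A few genes departed from the rest in every line or in some. Rpn6 was between 0.00 and 0.11 in all 8 lines. Prosbeta1 was called higher (0.12 ± 0.04, adjusted p = 0.0240, edgeR), with values from −0.03 in BM4 to 0.27 in BM6, and its call was lost without BM4, BM5 or BM6, each left out in turn. Scaled by library size alone, 31 of the 32 genes were lower and 0 higher. Rpn13, the gene called higher in the parental stock, ran from −0.11 (BM4) to 0.26 (BM5) and was not called over the lines (0.04 ± 0.04, adjusted p = 0.403). Rpt5, an ATPase of the cap, was at −0.43 to −0.44 in the parental stock, BM4 and BM21, and at −0.69 to −0.89 in the 5 sterile lines. The base scaffold Rpn1 had a like order, with −0.29 to −0.52 in the former and −0.60 to −0.76 in the latter. How often all genes separate the lines in this way was not worked out. The edgeR interaction test of stage and sterility, given below, called 0 of the 32 subunits and 0% of all genes.

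**Figure D3:**
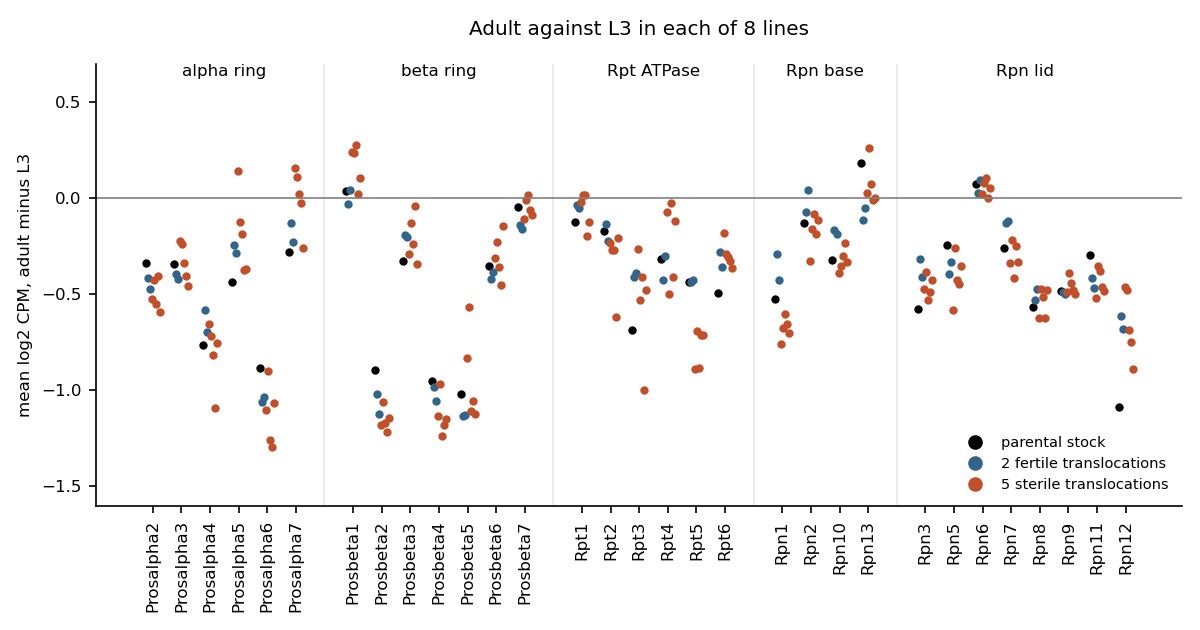
Log2 change from L3 to adult testes in each of 8 lines (vertical axis, mean log2 CPM of adult minus that of L3 libraries, without the 3 shallow adult libraries), 1 point per line and gene, for the 31 subunit genes other than Prosalpha1 grouped by role. Prosalpha6, Prosbeta2 and Prosbeta4 lie below −0.88 in all 8 lines, Rpn6 lies at or above 0 in all 8, and the sterile lines (orange) lie below the others without overlap at Rpt5 and Rpn1. How often all genes lack such overlap was not worked out, and the edgeR interaction test of stage and sterility called 0 subunits. Scaled by library size alone, 31 of 32 genes were called lower and 0 higher.

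Other genes of the ubiquitin-proteasome pathway were taken from a list of 25, of which 24 were tested; Ecm29 was not analysed here. In adult against L3 parental testes 11 were higher and 10 lower (edgeR), with a median of 0.16, in a comparison that called 36.1% of all genes higher and 38.5% lower. Among the higher ones were klhl10, the germline adaptor of a Cullin-3 ligase (1.76 ± 0.09), Cul3 (1.07 ± 0.07) and its RING partner Roc1b (1.03 ± 0.09). The F-box gene ntc (0.92 ± 0.10) and PI31 (0.73 ± 0.09), whose product binds the proteasome, were higher too, as was the polyubiquitin gene Ubi-p63E (0.67 ± 0.12). Lower were Usp14, the deubiquitinase of the cap (−0.68 ± 0.07), Keap1 (−0.56 ± 0.12), the ubiquitin-ribosomal fusion genes RpS27A (−0.52 ± 0.07) and RpL40 (−0.40 ± 0.08), and the shuttle factor gene Rad23 (−0.45 ± 0.10). The gene for the transcription factor known in flies to act on proteasome genes, cnc, was also lower (−0.42 ± 0.06, adjusted p = 5.12e-05), and so was its partner maf-S (−0.37 ± 0.08). The chaperone gene Pomp, whose product assembles the core, was not called (−0.16 ± 0.08, adjusted p = 0.0887).

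The 5 sterile lines were set against the 3 fertile ones to ask which subunit genes differ with the fertility of the males. Adult testes gave 1 called gene of 32, Rpt5, which was lower in sterile lines, against 2.76% of 13596 genes called and 1.28% called lower (edgeR, 5 subunits at an unadjusted p under 0.05). Rpt5 (FBgn0028684, 3R, 23752876 to 23754623, plus strand) had 93.0 CPM in BM1, 101 in BM6, 108 in BM46, 109.9 in BM5 and 126 in BM24, and 149 in the parental stock, 150.1 in BM21 and 163 in BM4 (each over the summed libraries of a line). All 5 sterile lines lay below all 3 fertile ones, with means of 107 ± 12.2 and 154 ± 7.83 (SD over lines, n = 5 and n = 3), and the log2 change was −0.52 ± 0.10 (adjusted p = 0.0408, edgeR). The call is close to its threshold: leaving out the parental stock gave an adjusted p of 0.0899, BM21 0.0961, BM4 0.1655, BM1 0.0536, BM5 0.0785, BM6 0.0983 and BM46 0.0929, and leaving out BM24 gave 0.0195. With the plate row of the wells as a covariate it was 0.261, at a change of −0.56. DESeq2 called Rpt5 at an adjusted p of 0.000284. The overlapping gene on the opposite strand, Hrd3, had a change of 0.14 ± 0.12 (adjusted p = 0.531, edgeR) in the same comparison.

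No other subunit passed in adults under edgeR. Prosbeta2 was at −0.27 ± 0.08 (adjusted p = 0.113), with 63.2 to 69.4 CPM in sterile and 71.5 to 85.6 in fertile lines, which do not overlap. Prosbeta4 was at −0.24 ± 0.08 (adjusted p = 0.144), with ranges that do not overlap either. The classes were also without overlap at Prosalpha2, Prosalpha6 and Rpn5, none of them called. How often all genes lack such overlap was not worked out, so it is a description only. Rpn11, the deubiquitinase of the lid, was at −0.20 ± 0.08 (adjusted p = 0.171), with ranges that overlap. Prosbeta1 went the other way (0.17 ± 0.07, adjusted p = 0.183). The median change of the 32 genes was −0.02, and that of all genes 0.02. DESeq2 called Prosalpha1 and Prosbeta2 besides Rpt5. Of the 24 pathway genes, 0 were called in adults (2 at an unadjusted p under 0.05) and 0 in L3 (0 at that level, both edgeR). Among the testis copies, Prosbeta4R2 was lower in adult sterile lines (−1.20 ± 0.09, adjusted p = 0.00117, edgeR). The muscle list also moved with the classes, its mean log2 CPM being 4.18 to 5.07 in the sterile and 3.70 to 4.01 in the fertile adult lines, and the germline list was at 6.82 to 6.98 and 7.08 to 7.15. Their part in the level of Rpt5 was not tested.

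In L3 testes, 0 of 32 subunit genes were called between the classes, against 5.53% of 13132 genes (edgeR, 4 subunits at an unadjusted p under 0.05, and 0 called by DESeq2). The line values of the classes did not overlap at Prosalpha2, Prosbeta7, Rpn9 and Rpn11, none of them called. How often all genes lack such overlap in L3 was not worked out, so this too is a description only. Rpt5 had 169 CPM in BM1, 173 in BM5, 173 in BM46, 178 in BM6 and 202 in BM24, and 198 in BM21, 201 in the parental stock and 213 in BM4, so that only BM24 reached the fertile lines (−0.19 ± 0.07, adjusted p = 0.178). Without BM24, 1 subunit gene was called, Prosalpha1, and 0 of the others; Rpt5 was then at −0.23 with an adjusted p of 0.0562. The class difference of Rpt5 was larger in adults than in L3 by 0.35 ± 0.08 on the log2 scale (unadjusted p = 0.00177, adjusted p = 0.234 over 13994 genes in the edgeR interaction test of 8 lines at 2 stages). In that test 0% of all genes and 0 subunits were called (1509 genes and 3 subunits at an unadjusted p under 0.05), and DESeq2 called Rpt5 alone among the subunits (adjusted p = 0.00272). The fat body list had a mean log2 CPM of 5.93 to 7.16 in sterile and 4.01 to 4.74 in fertile L3 lines, and its part was not tested.

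**Figure D4:**
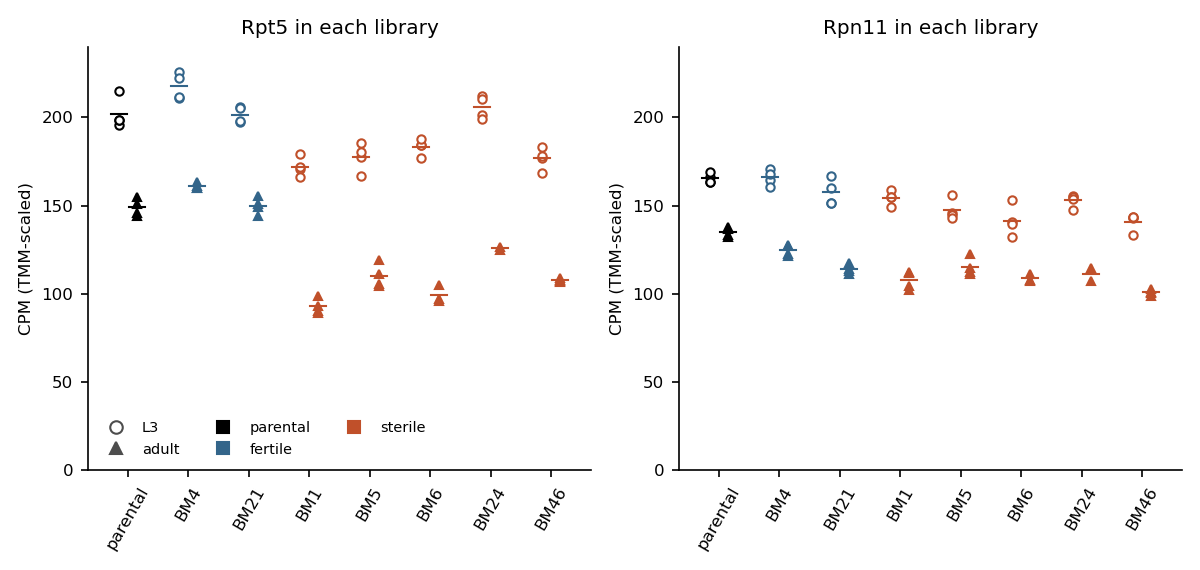
TMM-scaled CPM of Rpt5 and Rpn11 in each library with at least 1000000 counts (vertical axis from 0), by line on the horizontal axis, for L3 (open circles) and adult testes (triangles), with bars at the means. Adult Rpt5 is lower in the 5 sterile lines (orange) than in the parental stock, BM4 and BM21, while in L3 BM24 lies with the fertile lines; Rpn11 is highest in the parental stock in adults.

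Each translocation was then compared with the parental stock within a stage. These comparisons share the 4 parental libraries, and so are not independent of one another. In adults, the parental libraries were all in plate row C and those of the translocations in rows D, E and F. Line and plate row therefore cannot be told apart in the adult comparisons. In L3, only BM1 and BM4 were in row A with the parental stock. The number of subunit genes called in adults was 3 in BM4, 2 in BM21, 14 in BM1, 6 in BM5, 8 in BM6, 5 in BM24 and 8 in BM46 (edgeR over 32 libraries, 12713 genes). The share of all genes called was 17.8%, 19.6%, 51.2%, 31.1%, 38.5%, 28.5% and 34% in that order. In L3 the numbers were 7 in BM4, 5 in BM21, 7 in BM1, 8 in BM5, 12 in BM6, 8 in BM24 and 7 in BM46, against 37.7%, 34.8%, 43.5%, 43.9%, 44.9%, 42.9% and 45.5% of 12071 genes. The subunits' share was below that of all genes in all 14 comparisons, from 6.25% in adult BM21 to 43.8% in adult BM1. Without the 3 shallow libraries the adult counts rose to 9 in BM4 and 6 in BM21. In the sterile lines they rose to 17 in BM1, 11 in BM5, 12 in BM6, 9 in BM24 and 14 in BM46. The subunits' share was then below that of all genes in 5 of 7 adult comparisons. The exceptions were BM4 (28.1% against 26.6%) and BM46 (43.8% against 43.4%). DESeq2 called 0 subunits in adult BM4, and 9.08% of all genes there. Prosbeta1, Prosbeta7 and Rpt1 were called in 0 of the 14 edgeR comparisons. Prosalpha1 was among those called lower in L3 BM1, BM5, BM6 and BM46, and leaving it out changed no count by more than 1.

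A few genes came up in several lines. Rpn11 (2L, 5058404 to 5059790, minus strand) had 133, 137, 132 and 138 CPM in the adult parental libraries and 98.7 to 103 in those of BM46, a change of −0.41 ± 0.06 (adjusted p = 1.02e-06, edgeR). It was also lower in adult BM1 (−0.31), BM6 (−0.31), BM24 (−0.26), BM21 (−0.24) and BM5 (−0.23), and was not called in BM4. In L3 it was lower in BM6 (−0.22 ± 0.05), BM46 (−0.21 ± 0.05) and BM5 (−0.16 ± 0.05). Since BM21 is fertile, the lower adult level was not limited to sterile lines.

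Rpt5 was lower than in the parental stock in the adults of BM1 (−0.67 ± 0.10, adjusted p = 1.54e-06, edgeR), BM6 (−0.59), BM46 (−0.46), BM5 (−0.44) and BM24 (−0.37), and was not called in BM4 or BM21. Adult BM24 had only 2 libraries of at least 1000000 counts, which bears on every adult BM24 value here. The 4 adult BM1 libraries held 88.7 to 98.9 CPM against 144 to 155 in the parental ones. In L3 it was lower in BM1 (−0.20), BM5 (−0.18), BM46 (−0.17) and BM6 (−0.13), higher in BM4 (0.15) and not called in BM24 or BM21. Prosbeta2 was lower in adult BM6 (−0.45), BM1 (−0.42), BM46 (−0.40) and BM5 (−0.34).

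Some subunits were higher than in the parental stock. Rpn12 was higher in the adults of every line but BM6, by 0.39 (BM5) to 0.74 (BM1). Its call in BM4 was lost by DESeq2 (adjusted p = 0.243) and without the libraries high in accessory gland genes (adjusted p = 0.138, edgeR). The parental level of Rpn12 rests on values of 19.8, 21.2, 19.8 and 13.5 CPM, of which library 4 is the lowest. Without that library the number of subunits called fell to 1 in BM4, 1 in BM21, 2 in BM5, 3 in BM24 and 5 in BM46. The share of all genes called without it is not given here. The X-linked ATPases Rpt4 and Rpt3 were higher in adult BM1 (0.49 ± 0.09 and 0.44 ± 0.11) and BM46 (0.36 and 0.31). Rpt4 was also higher in sterile BM6 (0.27) and lower in sterile BM5 (−0.25), and Rpt3 was also higher in fertile BM4 (0.30). In L3, the gene with the lowest adjusted p in BM4 was Prosalpha6, with 139.6 to 164 CPM against 119 to 139 in the parental libraries (0.29 ± 0.07, adjusted p = 0.000961, edgeR). In BM24 it was Rpn1, with 249.7 to 268 against 226 to 235 CPM (0.20 ± 0.04, adjusted p = 0.000432, edgeR). In BM21 it was Rpn2, with 344 to 400.4 against 414 to 432 CPM (−0.13 ± 0.04, adjusted p = 0.0202, edgeR). These 3 pairs of groups did not overlap, and the call of Rpn2 was lost without BM21 library 4 (−0.09, adjusted p = 0.1196). All called L3 changes other than those of Prosalpha1 were below 0.4 in size on the log2 scale.

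**Figure D5:**
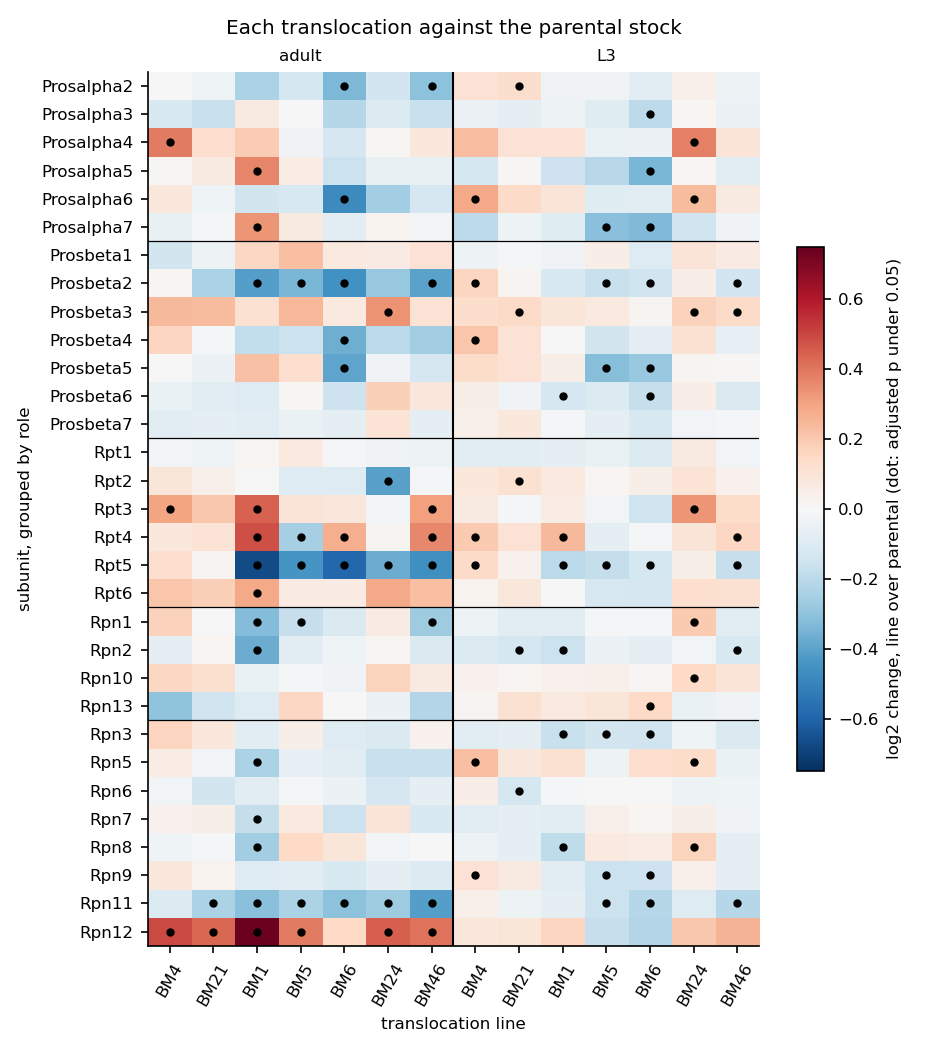
Log2 change of 31 subunit genes (rows, grouped by role, without Prosalpha1) in each translocation line against the parental stock (columns, adults left and L3 right); colour gives the change and a dot marks an edgeR adjusted p under 0.05. Rpn11 carries dots in 6 of 7 adult columns, Rpt5 in the 5 sterile adult columns, and Rpn12 is higher in 6 of 7 adult columns; all columns share the parental libraries.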

How the data were processed

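Poly(A) RNA of 64 pools of testes was sequenced as stranded 50 base single-end libraries with spike-ins, per the labels' protocols. The authors deposited raw counts per gene. bcl2fastq 1.8, cutadapt, HISAT2 2.1.0 and featureCounts 1.6.1 are named in the submitters' processing notes; the genome build, the strand setting and the treatment of reads with several matches were not given in the sources used here. Gene positions are those of the deposited table, and those of all 32 members match the BDGP6 annotation.

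Counts were scaled by TMM and tested with the quasi-likelihood F test of edgeR 4.0.16 in R 4.3.3 (filterByExpr, Benjamini-Hochberg adjustment over all genes tested, called at an adjusted p under 0.05). SE is the log2 change divided by the square root of F. Stage over lines, the sterile and fertile classes and their interaction were fitted on counts summed per line and stage; each translocation was fitted over the 32 libraries of its stage. Printed CPM are TMM-scaled over all 64 libraries, and levels per kb use the exon length in the table. The CPM of subunit genes per line in the class comparisons are TMM-scaled over the sums per line and stage instead, shallow libraries included.

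On simulated data, the parental stage test (11286 genes) recovered 93% of genes changed 1.5-fold and 100% of those changed 2-fold, and the adult class test (13596 genes) 10% and 53%. Each simulation changed 100 genes per fold, up and down alike, and drew counts with a spread that followed the trend over expression. In the measured stage comparison 74.6% of genes were called, so these rates describe the simulated setting only. None of 96 pairs of libraries within a group held identical counts. Alternatives were RLE and library-size scaling, no filter, DESeq2 1.42.0, a replicate block, plate row, leaving out libraries or lines, and, added after the data were seen, leaving out Prosalpha1 or counting Rpn13R as a copy. The genes with values by library were the 3 highest and 3 lowest by stage change, the catalytic subunits, those called between classes and the lowest adjusted p per translocation. The members and gene lists were chosen with earlier results of these data known.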

Additional observations from a re-analysis of the deposited data

Results flagged for a closer look

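Of 80 groups of 4 or 5 values of Rpt5, Rpn11, the other genes given by library and the testis copies examined, 3 held a value far from the rest of its group, and chance gives about 1 in 20. Rpt5 in L3 parental replicate 3 was at 215 CPM, with the other libraries at 196 to 199. Rpn11 in L3 BM46 replicate 4 was at 133 CPM, with the others at 143. Among the L3 sums of the sterile lines, Rpt5 in BM24 was at 202 CPM, with the others at 169 to 178.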

How the results depend on the processing

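The stage decrease kept its count within 1.5 times under every alternative run: 23 to 26 subunit genes were called in the parental stock with 1 library left out, and 25 to 27 over the lines with 1 line left out. Scaled by library size, Prosbeta1 (−0.34), Rpn6 (−0.31) and Rpn13 (−0.20) turned lower, and Prosbeta1 ran from −0.024 to 0.13 with 1 parental library left out, the lowest without adult replicate 1. The replicate block gave 25 genes called in the parental stock, without Rpn13 (adjusted p = 0.0666, edgeR); same-numbered libraries did not deviate together (0 of 4 correlated best with their own number there, and 0 to 3 elsewhere), and the block moved no count by over 1.5 times.

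Between the classes, DESeq2 called 3 subunits in adults and 1 in the interaction, and the plate row left 0 in adults. With 1 line left out, 0 to 1 were called in adults, 0 to 1 in L3 (Prosalpha1, without BM24) and 0 in the interaction.

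Counts for single translocations moved most. In adults DESeq2 called 0 in BM4, 1 in BM21, 9 in BM1, 2 in BM5, 5 in BM6, 3 in BM24 and 4 in BM46. It called 9.08%, 9.3%, 32.2%, 16.3%, 21.2%, 14.8% and 17.9% of all genes in that order, also fewer than edgeR did. Without libraries under 1000000 counts, 9 were called in BM4, 6 in BM21, 11 in BM5, 9 in BM24 and 14 in BM46. In BM1 17 and in BM6 12 were called. The share of all genes was 26.6%, 28.9%, 40.2%, 36.4% and 43.4% in the former lines, and 59.3% and 48.3% in BM1 and BM6. Without libraries high in accessory gland genes, 0 were called in BM4, 1 in BM21, 7 in BM1 and 3 in BM6, against 13.4%, 18.9%, 38.4% and 22.2% of all genes. RLE and library-size scaling each gave 5 in adult BM4, against 18.9% and 19.1% of all genes. In L3, BM21 had 3 by RLE, 2 by library size and 2 unfiltered, against 34.9%, 34.2% and 24.9% of all genes. L3 BM4 had 11 by library size (39.9% of all genes). L3 BM46 had 4 by library size (44.7%) and 4 unfiltered (32.8%). With 1 library left out, BM4 had 1 to 3 in adults and 4 to 7 in L3, BM21 had 1 to 3 and 2 to 6, BM1 had 10 to 16 and 5 to 8, BM5 had 2 to 6 and 6 to 9, BM6 had 5 to 8 and 7 to 14, BM24 had 3 to 8 and 4 to 8, and BM46 had 5 to 8 and 3 to 7. The share of all genes is not given for the runs with 1 library left out. The libraries that moved a count by over 1.5 times were adult parental replicates 1 and 4, L3 parental replicates 1 to 4 and libraries of the line itself. The cause was not tested. Without the filter on low counts, the subunits' share was below that of all genes in 12 of 14 comparisons. The range of levels was 26.0-fold in adults and 14.2-fold in L3 by CPM without length. The alternative without libraries high in accessory gland genes left nothing out of the parental stage comparison.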
